A study of Mus musculus with 13 samples.

Results

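The Pim kinases are the products of 3 mouse genes, Pim1, Pim2 and Pim3, and all 3 were measured among 19938 genes in the bone marrow of mice bled by phlebotomy. Each gene was found by its annotation alone: each had 1 probe set annotated to it and 0 probe sets that it shared with another gene. The samples were 13 femoral marrows of C57BL/6 male mice aged 6 weeks on standard chow, with 1 Affymetrix Mouse Gene 1.0 ST array per sample. Marrow was taken from 3 baseline controls and, after 500 µL of blood had been drawn by retro-orbital puncture, as 1 sample at 4 h, 3 at 9 h and 2 each at 12, 15 and 48 h. The labels used here give no hour of collection and no sham puncture for the controls, and the part of either in the values was not tested.

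Pim kinases are serine/threonine kinases that are active as soon as they are made. They have no regulatory domain that must be switched on, so their activity follows the amount of protein, and the short-lived transcript and protein make transcription a main point of control. The genes were first met as sites of retroviral insertion in mouse lymphomas. In blood-forming cells cytokine receptors such as those for erythropoietin and interleukin-3 signal through JAK kinases to the transcription factors STAT5 and STAT3, which induce Pim1. The kinases phosphorylate Bad, a death protein, the cell cycle inhibitors p21 and p27, and regulators of translation, and mice without Pim1 have small red cells. Loss of blood raises erythropoietin, and the question put to each gene here was whether its transcript changed with time after the loss.

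RefSeq promoters of the 3 genes (build GRCm38.p6, the 250 bases before each start, all on the plus strand) are shown because Pim1, unlike Pim2 and Pim3, passed the test below. Pim1 has 2 starts in this table. Capitals mark the only match found to any of 3 motifs searched on both strands: TTCNNNGAA, the core that STAT proteins bind, GATAA, a core that GATA factors bind, and CACGTG, the E-box that MYC and the clock factors bind.
Pim1, first start, chr17:29490535-29490784: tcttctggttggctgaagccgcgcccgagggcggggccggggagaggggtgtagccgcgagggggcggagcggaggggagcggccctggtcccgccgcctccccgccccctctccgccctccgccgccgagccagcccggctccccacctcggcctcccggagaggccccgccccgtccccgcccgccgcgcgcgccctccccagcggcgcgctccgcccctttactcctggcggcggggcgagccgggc
Pim1, second start, chr17:29492835-29493084: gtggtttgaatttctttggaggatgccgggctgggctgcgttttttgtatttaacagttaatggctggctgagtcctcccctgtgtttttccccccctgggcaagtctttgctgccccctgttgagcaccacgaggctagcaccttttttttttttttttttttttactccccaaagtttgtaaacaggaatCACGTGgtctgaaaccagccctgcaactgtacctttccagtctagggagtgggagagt
Pim2, chrX:7878056-7878305: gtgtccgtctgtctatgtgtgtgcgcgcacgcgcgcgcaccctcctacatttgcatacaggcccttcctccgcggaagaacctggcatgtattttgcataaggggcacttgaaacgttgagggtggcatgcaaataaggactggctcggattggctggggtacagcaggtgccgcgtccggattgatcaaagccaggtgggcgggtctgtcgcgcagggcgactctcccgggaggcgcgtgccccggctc
Pim3, chr15:88861944-88862193: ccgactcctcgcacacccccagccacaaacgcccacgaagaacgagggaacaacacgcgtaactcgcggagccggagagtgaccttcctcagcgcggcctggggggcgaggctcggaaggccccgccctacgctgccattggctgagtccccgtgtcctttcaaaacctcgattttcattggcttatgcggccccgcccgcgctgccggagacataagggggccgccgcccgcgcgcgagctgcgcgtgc

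The first Pim1 promoter was 82.4% G and C with 36 CpG pairs, and its G and C share was higher than that of 99.4% of 32851 promoters in the table. The promoters of Pim2 (62.0% G and C, 22 CpG pairs) and Pim3 (68.0%, 31 CpG pairs) were also above the median of 52.4%. The second Pim1 promoter held 48.0% G and C and 4 CpG pairs. It alone of the 4 held a motif searched, 1 CACGTG, which 6.02% of all promoters in the table hold. None of the 4 held TTCNNNGAA (7.02% of all promoters) or GATAA (22.6%). A match is a description of letters in this window, and its absence says nothing about sites elsewhere.

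The numbers in the sample titles fall into 2 runs, a larger run of 10 arrays and a smaller run of 3, which holds 9 h replicates 1 and 2 beside control replicate 3. Array medians were 6.984 to 7.025 on the log2 scale in the larger run and 7.774 to 7.796 in the smaller, so levels are compared here within a run and the changes come from a fit with a term for it. In the smaller run 47.7% of genes, Pim2 among them, had the same deposited value on all 3 arrays, and 75.6% on at least 2 of the 3. Such repeats narrow the spread seen by a fit over both runs, so its p-values rest in part on them. Markers fixed for marrow cells were measured at mean log2 levels of 12.3 to 12.6 for 14 neutrophil genes, 11.4 to 12.1 for 13 erythroid genes and 9.73 to 10.2 for 11 B-cell genes over the larger run. Transcripts of other tissues moved with time. The mean level of 15 small intestine markers was 9.96 at 4 h, against 6.72 and 6.64 in the controls of that run. On the 9 to 48 h arrays of that run it was lower than in the controls, at 5.92 to 6.09. In the smaller run it was 7.22 in the control and 6.65 and 6.62 at 9 h. The mean level of 13 liver markers was 7.99 and 7.66 at 48 h, against 6.42 and 6.44 in the controls of the larger run. In a marrow sample, fewer cells of a type and less RNA per cell cannot be told apart.

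Pim1 rose after phlebotomy, stayed up for the hours from 9 to 15 and was back near control at 48 h, whereas neither Pim2 nor Pim3 passed the test at any time. Over the 9, 12 and 15 h groups together Pim1 was 1.80-fold its control level (log2 change 0.85 ± 0.08, standard error, 7 arrays against 3 controls, limma adjusted p = 0.00124). That placed it at rank 11 of 19938 genes by p. It was 1 of 3 members called higher, against a background of 0.652% of all genes called higher in that comparison and 0.135% lower. With the larger run alone, which does not hold the repeated values, the change of Pim1 was 0.87 with a larger standard error.

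In the larger run the deposited log2 level of Pim1 was 9.92 and 10.23 in the 2 controls, 10.62 at 4 h, 10.96 at 9 h, 10.78 and 11.02 at 12 h, 10.94 and 11.005 at 15 h, and 10.26 and 10.09 at 48 h. Every array from 4 to 15 h lay above both controls, while the 48 h arrays overlapped them. In the smaller run it was 12.19 and 12.17 at 9 h, against 11.37 in the control. All 7 arrays of 9, 12 and 15 h therefore lay above every control of their run, a pattern shown by 3.32% of all genes. The 47.7% of genes with the same value on all 3 arrays of the smaller run cannot show it. The share among the remaining genes is therefore higher. The controls of the larger run lay closer to each other than the higher of them lay to the lowest array of 9 to 15 h.

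**Figure D1:**
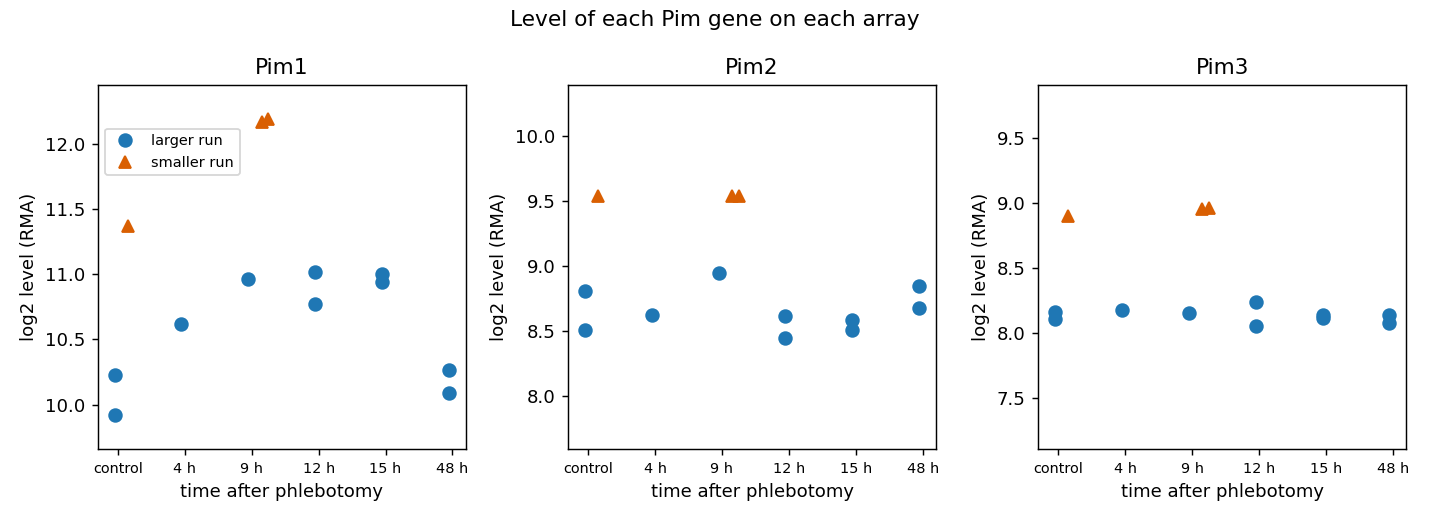
Deposited log2 level (RMA) of Pim1, Pim2 and Pim3 on each array, by group on the horizontal axis, with 1 point per array, circles for the larger run and triangles for the smaller, and a vertical span of 2.8 in each panel. For Pim1 the arrays of 9, 12 and 15 h lie above the controls of their run and the 48 h arrays at 10.26 and 10.09 lie among them, while Pim2 and Pim3 show no such step.

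At 4 h, with 1 array, the change of Pim1 was log2 0.53 ± 0.14 (1.45-fold), which did not pass over all genes (limma adjusted p = 0.0949). At that time 1.74% of genes were called higher and 0.251% lower. The 4 h array is also the one with the small intestine transcripts given above. Its mean level of 12 skeletal muscle markers was 9.68, against 8.03 and 7.96 in the controls of that run, and all 12 were above control (median change 1.55, 0 called). Its mean erythroid marker level of 11.38 was the lowest of the run, against 11.48 and 11.92 in the controls of that run. The median change of these markers was −0.37, with 0 of 13 above control. The part of these in the Pim1 value was not tested.

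At 9 h Pim1 rose by log2 0.85 ± 0.10 or 1.80-fold (limma adjusted p = 0.0127), when 0.0502% of genes were called higher and 0.0451% lower. This is the comparison that both runs hold. The difference was 0.89 in the larger run (1 array against 2 controls) and 0.81 in the smaller (2 arrays against 1). Both runs thus gave the same direction and a like size, at 1.85-fold and 1.75-fold. The larger-run array, 9 h replicate 3, had the highest mean T and NK marker level of that run (8.13). It also had the lowest mean level of stroma, bone and endothelial markers (9.19). The part of these in the Pim1 value was not tested. The adjusted p was 0.106 with the larger run alone, 0.0980 with the smaller alone and 0.860 without 9 h replicate 3.

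At 12 h Pim1 rose by 0.81 ± 0.11 or 1.75-fold (limma adjusted p = 0.0272), when 0.0853% of genes were called higher and 0.0201% lower. At 15 h it rose by 0.88 ± 0.11 or 1.85-fold (limma adjusted p = 0.0109), with 0.211% called higher and 0.0451% lower. The 12 h call was lost when control replicate 2 or 3 or any 1 array of 9, 12 or 15 h was left out (adjusted p from 0.0560 to 0.118), and the 15 h call without either 15 h array (0.0726 and 0.157), though the sizes stayed between 0.69 and 0.99. With all 35557 probe sets in the adjustment the calls at 9, 12 and 15 h were each lost (adjusted p = 0.108, 0.110 and 0.0730), and that of the 3 times together was kept (adjusted p = 0.0132).

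At 48 h the change of Pim1 from control was 0.09 ± 0.11 (95% interval −0.16 to 0.33, limma adjusted p = 0.774), when 0.326% of genes were called higher and 0.0502% lower. Set against the mean of 9, 12 and 15 h, Pim1 fell by 0.76 ± 0.10 on the log2 scale, to 0.591 of that level (limma adjusted p = 0.00496). In that comparison 0.883% of genes were called higher and 0.0953% lower. The 2 arrays of 48 h both lay below all 5 arrays of 9 to 15 h in the larger run. Beside this fall stand the liver transcripts of the same 2 arrays, of which 10 of 13 markers were called higher at 48 h than at 9 to 15 h, and a mean erythroid marker level of 12.05 and 11.91 at 48 h, against 11.62 to 11.77 at 9 to 15 h in that run. In the same comparison 7 of 7 megakaryocyte markers were above 0 (median 0.21), of which Gp9 was called (0.38 ± 0.07, limma adjusted p = 0.0427). Above 0 were also 0 of 11 monocyte and macrophage markers (median −0.16), 1 of 14 neutrophil markers (−0.13), 1 of 11 B-cell markers (−0.15), 2 of 11 T and NK cell markers (−0.27) and 1 of 12 stroma, bone and endothelial markers (−0.35), with 0 called in each. Against control, 13 of 13 erythroid markers were above 0 at 48 h (median 0.29, 0 called). Their mean level in the controls of the larger run was 11.48 and 11.92. The part of these lists in the Pim1 value was not tested.

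The order of the Pim1 changes was 48 h, 4 h, 12 h, 9 h and 15 h from low to high, and only the step down after 15 h was resolved between neighbouring times. The contrasts between neighbouring times were added after the values had been seen. The change was 0.32 ± 0.15 for 9 h minus 4 h (limma adjusted p = 0.379, 1.81% of genes called), −0.04 ± 0.13 for 12 h minus 9 h (adjusted p = 0.925) and 0.08 ± 0.12 for 15 h minus 12 h (adjusted p = 0.949). With limma these last 2 contrasts called 0 of 19938 genes (0%), while 2228 and 1055 genes had an unadjusted p under 0.05. At 48 h minus 15 h Pim1 fell by 0.80 ± 0.12 (limma adjusted p = 0.0180, 0.547% of genes called).

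**Figure D2:**
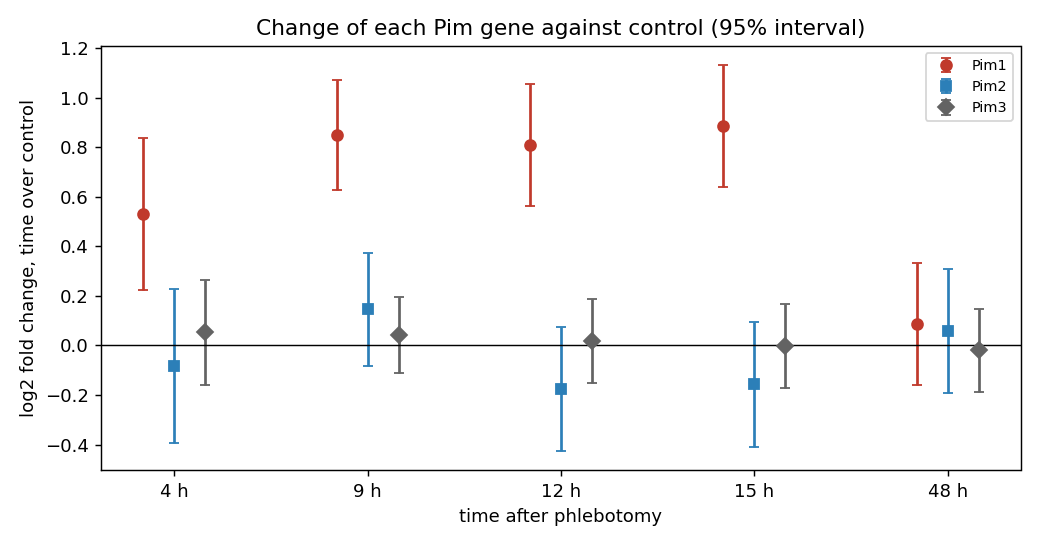
Log2 fold change of Pim1, Pim2 and Pim3 at each time over control, with the point for the limma estimate and the bar for its 95% interval. The Pim1 estimates at 9, 12 and 15 h are 0.85, 0.81 and 0.88 and lie above those of Pim2 and Pim3, and all 3 genes are near 0 at 48 h.

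Pim2, a kinase much studied in lymphoid and myeloma cells, moved in both directions by small amounts. In the larger run its log2 level was 8.51 and 8.80 in the controls, 8.62 at 4 h, 8.95 at 9 h, 8.44 and 8.61 at 12 h, 8.51 and 8.58 at 15 h, and 8.84 and 8.68 at 48 h. The 9 h array was the highest of the run, and the arrays of every other time overlapped the controls. In the smaller run all 3 arrays held the same value of 9.53, so that run gives Pim2 a change of exactly 0 at 9 h and adds nothing to its spread.

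For 9, 12 and 15 h together the change of Pim2 was −0.06 ± 0.08 (limma adjusted p = 0.812), with a 95% interval of −0.25 to 0.12, or 0.844-fold to 1.09-fold. With the larger run alone, which does not hold the repeated values, it was 0.02 with a larger standard error. The interval given thus rests in part on repeated values. Against control it was −0.08 ± 0.14 at 4 h, 0.15 ± 0.10 at 9 h, −0.17 ± 0.11 at 12 h, −0.16 ± 0.11 at 15 h and 0.06 ± 0.11 at 48 h. The adjusted p over these 5 times was 0.536 or more. Between 9 h and 12 h, the largest step of Pim2 between neighbouring times, the difference of −0.32 ± 0.13 did not pass (limma adjusted p = 0.415, unadjusted p = 0.0299).

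Pim3, the third kinase of the family, varied least. Its log2 level in the larger run was 8.16 and 8.11 in the controls, 8.18 at 4 h, 8.16 at 9 h, 8.24 and 8.05 at 12 h, 8.14 and 8.12 at 15 h, and 8.08 and 8.14 at 48 h. The highest and the lowest of these 10 values are both 12 h arrays. In the smaller run it was 8.96 and 8.95 at 9 h, against 8.90 in the control.

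The change of Pim3 for 9, 12 and 15 h together was 0.02 ± 0.06 (limma adjusted p = 0.920, 95% interval −0.10 to 0.14, or 0.930-fold to 1.10-fold). At single times it lay between −0.02 ± 0.08 at 48 h and 0.05 ± 0.10 at 4 h, with adjusted p of 0.854 or more. Its sign turned in some of the alternative scalings, at values near 0. Over the 10 arrays of the larger run its log2 range was 0.189, smaller than that of all but 2.6% of genes. The ranges of Pim1 and Pim2 were 1.10 and 0.502, against a median of 0.427 over all genes.

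The 3 genes were then compared with each other as differences on the same array, because levels of different probe sets have no common scale. With labels permuted within each run, 63 arrangements of the 7 arrays of 9, 12 and 15 h and the 3 controls are possible, and the smallest p is 0.0159. In this test, which weights arrays and not times equally, the change of Pim1 exceeded that of Pim2 by log2 0.87 and that of Pim3 by 0.82. Both had an exact two-sided permutation p = 0.0159, the smallest possible, and an adjusted p = 0.0238 over the 3 pairs. The change of Pim3 minus that of Pim2 was 0.05 (exact permutation p = 0.714, adjusted p = 0.714). Taken singly, the change was 0.85 for Pim1 (exact permutation p = 0.0159, adjusted p = 0.0476 over the 3 members), −0.02 for Pim2 (exact permutation p = 0.952, adjusted p = 0.952) and 0.02 for Pim3 (exact permutation p = 0.508, adjusted p = 0.762). The adjusted p of Pim1 singly was 0.0667 to 0.167 when any 1 of these 10 arrays was left out, and its change 0.75 to 0.93. With fewer arrays the smallest possible p is larger: in the larger run alone the changes of Pim1 over Pim2 and over Pim3 were 0.90 and 0.86 with adjusted p = 0.0714 for both. Without control replicate 1 they were 0.86 and 0.71 (adjusted p = 0.0833 for both), without control replicate 2 they were 0.86 and 0.91 (0.0833 for both), and without control replicate 3 they were 0.90 and 0.86 (0.0714 for both). Over the larger run the levels of Pim1 and Pim2 correlated at r = −0.09, those of Pim1 and Pim3 at −0.02 and those of Pim2 and Pim3 at −0.40 (Pearson, 10 arrays that share their controls and times, given as a description).

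The genes most like each member were named by the highest Pearson r with it over the 10 arrays of the larger run, among 6496 or 6497 other genes whose values there spanned at least 0.5. For Pim1 they were Cish (r = 0.951), a STAT5-induced inhibitor of cytokine receptors, Erfe (0.944), the erythroid hormone that lowers hepcidin, Ggt5 (0.911), a gamma-glutamyltransferase, and Sema3a (0.911), a secreted semaphorin. The smaller run did not choose them. There the 9 h arrays differed from the control by 2.33 for Cish, 1.76 for Erfe, 0.81 for Sema3a and 0 for Ggt5, whose 3 values in that run are identical, beside 0.81 for Pim1. At 48 h the larger-run difference from the controls was 0.56 for Cish and 0.52 for Erfe, with no overlap of the groups, against 0.10 for Pim1, where the groups overlapped. In the fit over both runs the Cish change at 48 h was 0.54 ± 0.17 and did not pass (limma adjusted p = 0.207). Sema3a lay 0.40 and 0.51 above the control mean on the 48 h arrays, without overlap, while Ggt5, at 0.002 and 0.125, overlapped the controls.

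**Figure D3:**
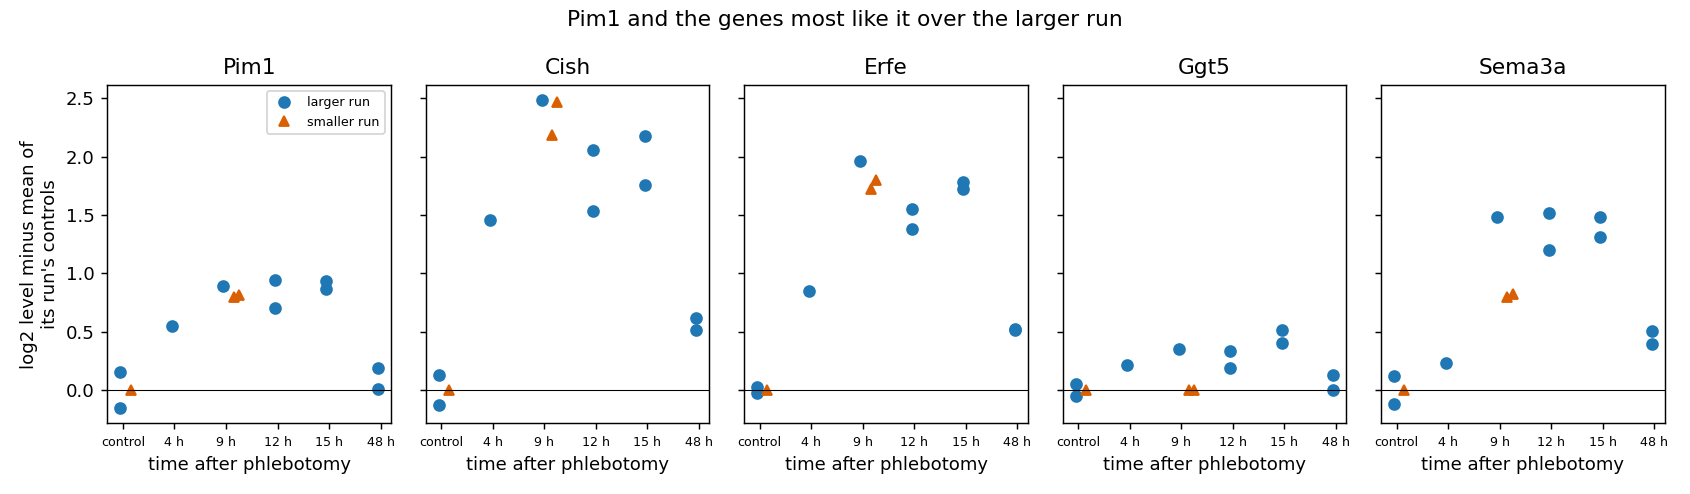
Log2 level of Pim1, Cish, Erfe, Ggt5 and Sema3a on each array minus the mean of the controls of its run (2 controls in the larger run, 1 in the smaller), by group, with circles for the larger run and triangles for the smaller. Each of the 5 genes has its highest larger-run value in an array of 9 to 15 h, and Cish and Erfe keep a difference of 0.56 and 0.52 at 48 h where that of Pim1 is 0.10. The genes beside Pim1 were chosen for their likeness to it over these larger-run arrays, so the shared peak there follows from the choice.

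For Pim2 the most like genes were Cmip (r = 0.942), Tbx6 (0.930), a T-box transcription factor, Zmiz2 (0.930) and Gse1 (0.925). In the smaller run their 9 h differences were −0.14, −0.01, −0.02 and −0.13, where that of Pim2 was 0. For Pim3 they were Selenow (0.891), a selenoprotein, Gkap1 (0.867), Adam21 (0.843) and Ndufs5 (0.837), a subunit of respiratory complex I. Their differences in the smaller run were −0.02, 0, 0.08 and 0, beside 0.06 for Pim3. As Pim3 itself spanned 0.189, its r values describe small differences.

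Of 15 measured receptors, kinases and STAT factors that stand upstream of the Pim genes, limma called 0 in each of the 7 comparisons. In each of these at most 1.74% of all genes were called higher and at most 0.251% lower, so a count of 0 lies near that share. The median change of the list at 9, 12 and 15 h together was −0.01, against −0.00 over all genes. The transcripts of Epor, the erythropoietin receptor (−0.16 ± 0.12, adjusted p = 0.654), Jak2, its kinase (−0.15 ± 0.06, adjusted p = 0.343), Stat5a (−0.07 ± 0.07, adjusted p = 0.741) and Stat5b (−0.01 ± 0.06, adjusted p = 0.953) are given for that comparison from the limma fit.

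Of 24 known targets of STAT5 and STAT3, a list that does not hold the Pim genes, 5 were called higher and 0 lower at 9, 12 and 15 h together. The share over all genes was 0.652% higher and 0.135% lower, and the median change of the list was 0.07. The list was chosen with earlier results of these data known, so its count is given as a description. Tfrc is also counted among the erythroid markers. Erfe rose by 1.67 ± 0.06 (limma adjusted p = 4.7e-07) and Cish by 2.04 ± 0.13 (limma adjusted p = 6.15e-05). Socs3, another feedback inhibitor, rose by 0.34 ± 0.06 (adjusted p = 0.0314), Osm, the cytokine oncostatin M, by 0.60 ± 0.11 (adjusted p = 0.0424) and Tfrc, the transferrin receptor, by 0.46 ± 0.09 (adjusted p = 0.0453). Osm was named after its value had been seen. Cish and Erfe were called in 22 of 22 alternatives, Socs3 in 9, Osm in 6 and Tfrc in 5, so the count of 5 ran from 2 to 5. It was 2 or 3 without any 1 array other than control replicate 3 and the 4 h array. The 22 alternatives do not hold the fits with every probe set or with dim genes left out. They do hold the fit without the 4 h array, which repeats the main fit here. The fit without that array and 9 h replicate 1 repeats the one without that replicate. Bcl2l1, which encodes the survival protein BCL-XL, stood at −0.00 ± 0.07 (adjusted p = 0.994) and Myc at 0.21 ± 0.11 (adjusted p = 0.470).

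At 4 h the targets called were Cish (1.43 ± 0.22), Erfe (0.81 ± 0.10), Id1 (0.75 ± 0.15), a target of bone morphogenetic proteins as well, which was named after its value had been seen, and Socs3 (0.59 ± 0.10), with limma adjusted p from 0.00105 to 0.0265. These calls rest on the single 4 h array, which carries the small intestine and muscle transcripts, at a time when 1.74% of all genes were called higher, and the part of those transcripts was not tested. At 48 h minus the mean of 9, 12 and 15 h Cish fell by 1.501 ± 0.15, Erfe by 1.18 ± 0.07 and Socs3 by 0.47 ± 0.07. Gfi1b, a repressor of transcription in erythroid and platelet precursors, rose by 0.77 ± 0.11 (limma adjusted p = 0.0137). Pim1 thus stood beside 3 falls among 24 targets in that comparison, where 0.0953% of all genes were called lower and 0.883% higher. The median of the list was −0.155, against 0.01 over all genes. At 48 h against control only Erfe of the list was called (0.49 ± 0.08, limma adjusted p = 0.0387). Tfrc, not called there, stood at 0.42 ± 0.12 (limma adjusted p = 0.175), and Socs3 at −0.13 ± 0.08. Tfrc at 48 h differed from its mean of 9, 12 and 15 h by −0.04 ± 0.10, so it did not fall as Pim1 did. All these comparisons share their controls or their 9 to 15 h arrays.

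Of 25 measured substrates of the Pim kinases, 19 other growth and survival kinases and 8 proteins that bind AU-rich elements of short-lived transcripts, limma called 0 in each of the 7 comparisons. As at most 1.74% of all genes were called higher and at most 0.251% lower in any of them, these counts lie near that share. Their median changes at 9, 12 and 15 h together were −0.02, −0.02 and −0.07. A further list held 8 measured genes of the chaperones that fold Pim proteins and of the phosphatase PP2A that acts on them. Of these 2 were called higher at 9, 12 and 15 h together, against 0.652% of all genes. These 2 were Hsp90aa1, an HSP90 chaperone (0.37 ± 0.06, limma adjusted p = 0.0280), and Ppp2r1b, a PP2A scaffold subunit (0.44 ± 0.08, adjusted p = 0.0391). The median of that list was 0.08.

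Markers of marrow cells stood beside the Pim1 rise as follows. At 9, 12 and 15 h together, when 0.652% of all genes were called higher and 0.135% lower, limma called 1 of 13 erythroid markers higher (Tfrc). It called 1 of 7 megakaryocyte markers lower (Gp9, a platelet glycoprotein, −0.34 ± 0.06, adjusted p = 0.0314). It called 0 of 14 neutrophil, 11 B-cell, 11 T and NK cell, 11 monocyte and macrophage, 8 stem and progenitor, and 12 stroma, bone and endothelial markers. The median change was −0.03 for the erythroid list, −0.14 for megakaryocytes, −0.03 for neutrophils, −0.12 for B cells, 0.03 for T and NK cells, 0.02 for monocytes and macrophages, −0.09 for stem and progenitor cells and −0.03 for stroma. Of 15 small intestine markers 8 were called lower than in controls and only 1 had a change above 0, with a median of −0.46. Of 13 liver and 12 skeletal muscle markers 0 were called, with medians of −0.06 and −0.32. At 4 h, where 13 small intestine markers were called higher, Ebf1, a B-cell transcription factor, fell by 0.57 ± 0.11 (limma adjusted p = 0.0277). The part of these lists in the change of Pim1 was not tested. Leaving out 9 h replicate 1, the array with the highest liver marker level of the smaller run (7.37, against 7.11 in the control), gave Pim1 a change of 0.85 ± 0.09 (limma adjusted p = 0.00395) for 9, 12 and 15 h together. That fit keeps the other arrays with lower small intestine markers than their controls, so it does not test the part of other tissues.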

How the data were processed

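The authors deposited 1 table of log2 levels, made with RMA per the submitters' processing notes, for Affymetrix Mouse Gene 1.0 ST arrays. Its version, and which arrays were normalized together, are not given in the sources used here. RNA was extracted with Trizol and cleaned on RNeasy columns, per the labels' protocols. Groups follow the time label. Replicate numbers follow accession order and pair nothing, and whether replicates are separate animals is not stated, so each p-value reflects spread among samples that may be technical. Of 35557 probe sets, 21789 had 1 gene symbol, 1621 had several and 12147 were not listed with a gene. Symbols were updated by Entrez identifier for 21698, and the probe set with the highest mean stood for each of 19938 genes.

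One linear model with 6 groups and a run term (6 residual and 4.62 prior degrees of freedom) was fitted to the 13 arrays (limma 3.58.1, R 4.3.3), followed by eBayes and Benjamini-Hochberg adjustment over all genes at 0.05. The 4 h group was assumed to vary like the others. The rule for named genes took the 3 members, up to 4 called genes of smallest p per list (17 lists), 8 pathway genes, and the 4 genes most correlated with each member. Exact permutations were run within runs. Alternatives varied the run term, arrays, filter, probe sets, scaling and moderation. The members, lists and tests were chosen with earlier results of these data known. Plots used Python 3.11.15 and matplotlib 3.10.9. The number of arrays limits the precision.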

Additional observations from a re-analysis of the deposited data

Results flagged for a closer look

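The change of Pim1 from control differed between time groups by a test of that difference. The part of the liver transcripts and cell markers of the 48 h arrays in it was not tested. The change of Pim1 at 48 h minus its change at 9, 12 and 15 h was −0.76 ± 0.10 on the log2 scale (limma adjusted p = 0.00496), and both 48 h arrays lay below every array of 9, 12 and 15 h in the larger run.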

How the results depend on the processing

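The Pim1 rise over 9, 12 and 15 h together and its fall at 48 h kept their direction and passed in every limma alternative but 1, the fit without the run term, where the values were 0.71 (adjusted p = 1) and −1.04 (adjusted p = 0.998). That fit sets arrays of both runs against each other. It also gave Pim1 1.27 at 9 h (adjusted p = 0.435), 0.39 at 12 h, 0.46 at 15 h and −0.33 at 48 h, Pim2 −0.19 at 48 h and −0.044 at 48 h minus the middle times, and Pim3 −0.21 at 4 h, −0.24 at 12 h and −0.067 for the middle times. Single-time Pim1 calls at 9, 12 and 15 h were lost in the larger run alone (0.89, 0.82 and 0.90, adjusted p = 0.106, 0.132 and 0.0612), with only the 2 groups compared in the fit (0.85, 0.82 and 0.90, adjusted p = 0.286, 0.406 and 0.182) and with every probe set (0.85, 0.81 and 0.88). The 9 h call was lost in the smaller run alone (0.81), the 12 and 15 h calls with array weights (0.78 and 0.85, adjusted p = 0.130 and 0.0563), and the 12 h call without both the 4 h array and 9 h replicate 1 (0.81, adjusted p = 0.0591), an alternative chosen after seeing the data. Leaving out the 4 h array alters no other contrast, so that value is the one without 9 h replicate 1. With array weights the 4 h value of Pim1 was 0.50 against 0.53 and its adjusted p 0.0143, but a group of 1 array has no residual from which to estimate its weight, and 1852 genes were called at 4 h in that fit, so no call is read from it. In the larger run alone the permutation gave Pim1 0.87 (exact permutation adjusted p = 0.143), and 0.90 over Pim2 and 0.86 over Pim3, where fewer arrangements exist. Signs turned for Pim2 over the middle times in the larger run alone (0.019), for Pim3 with quantile normalization (−0.017 at 4 h, −0.024 at 12 h, −0.025 for the middle times), with centred arrays (−0.024 at 4 h) and with array weights (0.0063 at 15 h). The STAT target count of 5, whose alternatives were also chosen after seeing the data, was 2 without the run term, with array weights and without both arrays, and 3 in the larger run alone, with only the groups compared in the fit, with quantile normalization and with centred arrays.

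With each array left out in turn, Pim1 ranged from 0.78 to 0.91 at 9 h, 0.69 to 0.93 at 12 h, 0.76 to 0.99 at 15 h and −0.033 to 0.19 at 48 h, and from 0.75 to 0.93 in the permutation. Pim2 ranged from −0.084 to 0.14 at 48 h, −0.18 to 0.019 over the middle times and −0.10 to 0.063 in the permutation. Pim3 ranged from −0.077 to 0.11 at 12 h, −0.016 to 0.023 at 15 h, −0.049 to 0.0086 at 48 h and −0.012 to 0.051 over the middle times. The change of Pim1 minus that of Pim2 ranged from 0.85 to 0.92, Pim1 minus Pim3 from 0.71 to 0.91 and Pim3 minus Pim2 from −0.048 to 0.15, and the STAT target count from 2 to 5. Over all alternatives the genes called numbered 39 to 1852 at 4 h (397 as reported), 3 to 2073 at 9 h (19), 2 to 414 at 12 h (21), 5 to 505 at 15 h (51), 11 to 143 at 48 h (75), 8 to 340 over the middle times (157) and 13 to 502 at 48 h minus the middle times (195). The highest count at 9 h came from the smaller run alone, a fit of 3 arrays with 1 control, where 47.7% of genes hold the same value on all 3. The cause of these shifts was not tested. No paired analysis was possible because replicate numbers follow accession order and mark no shared animal, day or litter. The 4 h group is 1 array, and the repeated values of the smaller run limit what it adds for Pim2 and for the spread over all genes.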
